A study of Mus musculus with 10 samples.

Results

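Bile acids are made from cholesterol in hepatocytes, and 10 genes of their synthesis, transport and feedback control were followed here in mouse liver. They are Cyp7a1, Cyp8b1, Cyp27a1, Cyp7b1, Baat, Slc10a1, Abcb11, Abcb4, Fgfr4 and Klb. They were chosen by gene symbol in the array annotation, and the brightest probe set stood for each gene. All 10 passed the filter on dim probe sets, each with 1 probe set, among 13942 genes tested. Liver RNA was hybridised to 10 Affymetrix Mouse Gene 2.1 ST arrays, which carry probes along the exons of each transcript. All mice were female BALB/cByJ animals of 3 months. The groups were Pml wild type fed ad libitum (2 arrays), Pml knockout fed ad libitum (2 arrays), Pml wild type without food for 6 h (3 arrays) and Pml knockout without food for 6 h (3 arrays). Pml encodes the scaffold protein of the PML nuclear bodies. The labels do not describe the knockout allele, name no extraction or hybridisation batch, and attach the note on food removal to the fed samples too, so feeding was read from the titles and sample characteristics. They also do not say whether arrays of a group came from separate animals, so p-values measure the spread between these arrays, which may be technical.

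Synthesis starts along either of a pair of routes. In the classical route CYP7A1 hydroxylates cholesterol and sets the rate, and CYP8B1, the sterol hydroxylase that diverts intermediates to cholic acid, fixes the proportion of that acid. In the alternative route CYP27A1, a mitochondrial sterol hydroxylase, makes oxysterols that CYP7B1 hydroxylates further. BAAT joins the finished acids to taurine or glycine. Hepatocytes take conjugated acids up from portal blood through SLC10A1 (NTCP), and export them into the canaliculus through ABCB11 (the bile salt export pump), while ABCB4 moves phosphatidylcholine into bile. Bile acids in the ileum induce the hormone FGF15, which acts on hepatocytes through FGFR4 and its coreceptor beta-Klotho, encoded by Klb, and lowers Cyp7a1. Inside hepatocytes the bile acid receptor FXR, encoded by Nr1h4, induces Abcb11 and the repressor SHP, encoded by Nr0b2.

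Promoter sequence was at hand for 7 of the 10 genes, from RefSeq on GRCm38.p6; Cyp7a1, Cyp7b1 and Baat had none. The 4 stretches below are the 250 bases before the annotated start of Abcb11, Abcb4 and Fgfr4, which were called with fasting in wild type, and of Cyp8b1, which was not, chosen to show a promoter with matches for each of a synthesis enzyme and an exporter and a pair without matches. Each is printed 5′ to 3′ on the gene's own strand, with matches to the searched letters in capitals. Cyp8b1 lies on the minus strand at chr9:121916306-121916555, Abcb11 on the minus strand at chr2:69342617-69342866, Abcb4 on the plus strand at chr5:8893471-8893720 and Fgfr4 on the plus strand at chr13:55152568-55152817.
Cyp8b1: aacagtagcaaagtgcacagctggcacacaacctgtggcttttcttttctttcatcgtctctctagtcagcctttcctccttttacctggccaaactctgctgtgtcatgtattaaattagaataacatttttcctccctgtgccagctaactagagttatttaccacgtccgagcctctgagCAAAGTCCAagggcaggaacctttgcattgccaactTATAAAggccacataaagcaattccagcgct
Abcb11: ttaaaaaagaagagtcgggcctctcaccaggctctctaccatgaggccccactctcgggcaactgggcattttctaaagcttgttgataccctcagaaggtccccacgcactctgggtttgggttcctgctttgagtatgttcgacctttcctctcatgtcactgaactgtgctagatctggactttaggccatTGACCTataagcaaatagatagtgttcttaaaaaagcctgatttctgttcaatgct
Abcb4: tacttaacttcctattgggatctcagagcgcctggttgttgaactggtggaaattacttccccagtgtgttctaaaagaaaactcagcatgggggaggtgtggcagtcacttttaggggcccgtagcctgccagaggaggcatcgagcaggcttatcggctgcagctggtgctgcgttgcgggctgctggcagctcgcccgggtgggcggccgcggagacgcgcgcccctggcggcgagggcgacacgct
Fgfr4: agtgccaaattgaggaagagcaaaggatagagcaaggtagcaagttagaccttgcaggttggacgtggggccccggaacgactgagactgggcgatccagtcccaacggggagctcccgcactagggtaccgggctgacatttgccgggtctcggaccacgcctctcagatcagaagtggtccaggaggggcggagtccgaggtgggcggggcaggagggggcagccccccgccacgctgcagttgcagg

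The letters searched, on both strands, were AGGTCA (the core letters bound by many nuclear receptors), CAAAGTCCA (an HNF4 site), CACGTG (the E-box bound by clock proteins) and TATAAA. They share no overlap with each other in these promoters. The Cyp8b1 stretch held CAAAGTCCA from 67 to 59 bases before the start and TATAAA from 31 to 26 bases before it. CAAAGTCCA was present in 0.38% and TATAAA in 12.37% of 32851 promoter stretches of the same length in the table. Abcb11 held AGGTCA on its opposite strand (TGACCT as printed) from 56 to 51 bases before the start; 14.02% of all stretches held that motif. The Abcb4 and Fgfr4 stretches, which are richer in G and C (61.6% and 64.0%, against 44.8% for Cyp8b1 and 46.4% for Abcb11), held none of the 4 letter strings, nor did those of Cyp27a1 and Klb. Slc10a1, with a pair of annotated starts, held TATAAA before the upstream start and AGGTCA before the other. CACGTG, present in 6.02% of all stretches, was in none of the 7 genes. A match describes the letters only and shows no binding.

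The deposited probe set intensities had array medians between 43.5 and 47.5, and all values below are log2 intensities unless a fold or a percentage is named. Pml itself was checked first: the 5 wild type arrays lay between 7.50 and 8.37 and the 5 knockout arrays between 6.05 and 6.92, so the genotypes did not overlap. The knockout intensity was 32.7% of the wild type one (log2 difference -1.62, two-sided exact permutation p = 0.00794, the smallest that 252 divisions allow). Array medians over all probe sets were 5.44 to 5.57 on the log2 scale, so the knockout signal was dim. The ratio of intensities need not be the share of transcript that remained. Hepatocyte markers were bright on every array (9 of 9 above the array's median, summed level 15.29 to 15.40). In RNA of a whole tissue, fewer cells of a type and less RNA per cell cannot be told apart. Fasted knockout replicates 1 and 2 stood apart from replicate 3 in clock genes: Arntl, the core clock activator, read 4.60 and 4.53 there against 8.87 in replicate 3 and 9.04 to 9.29 in fasted wild type. Dbp, a clock output gene, read 10.05 and 9.80 in those replicates against 6.00 in replicate 3. Results for the fasted knockout are therefore also given without replicates 1 and 2. That leaves a lone fasted knockout array, which is assumed to vary like the other groups, and a wider error.

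**Figure D1:**
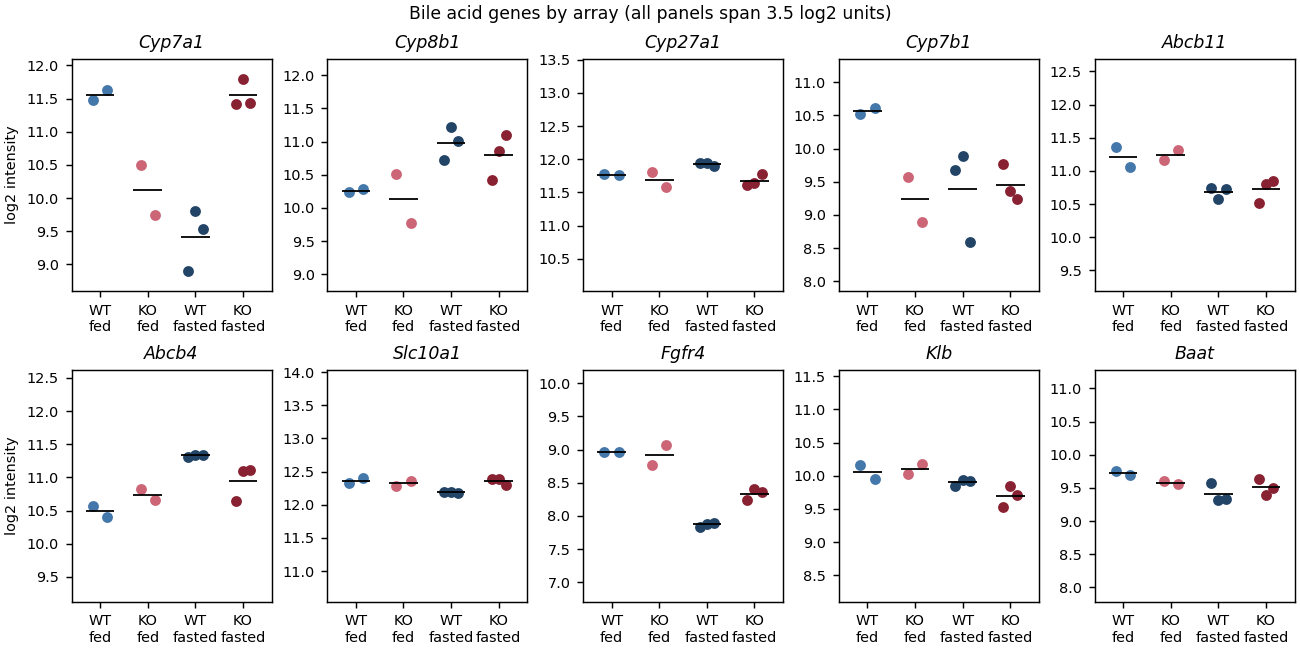
Log2 intensity of the 10 bile acid genes on each of the 10 arrays (points) in the 4 groups, with group means as horizontal lines; all panels span the same number of log2 units but start at different levels. Cyp7a1 is low in fasted wild type and in fed knockout livers and high in the other groups, and Fgfr4 is lower in both fasted groups.

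In wild type liver, 6 h without food went with less RNA of the rate-setting classical enzyme and of the hormone receptor that restrains it. RNA of the bile salt exporter was also lower, and that of the phospholipid exporter was higher. Of the 10 genes, 4 fell (Cyp7a1, Fgfr4, Cyp7b1 and Abcb11), 1 rose (Abcb4) and 5 did not pass the test. Over all 13942 genes, 13.2% fell and 8.23% rose at an adjusted p under 0.05 (limma with Benjamini-Hochberg adjustment over all genes). The median difference of the 10 genes was -0.25, and that of all genes was -0.02. The fasted and fed wild type arrays did not overlap for any of the 10 genes, but that also held for 52.7% of all genes. Marker levels of other cell types moved with fasting too: summed macrophage markers were 11.64 to 11.91 fed and 11.53 to 11.62 fasted, with 2 of 8 called lower (Adgre1 and Csf1r), and cholangiocyte markers were 9.08 to 9.20 fed and 9.23 to 9.57 fasted, with 0 of 5 tested called (0 at an unadjusted p under 0.05). The intestine list summed to 11.99 to 12.07 fed and 12.61 to 12.72 fasted; 3 of its 6 genes were above the array median on no array, and Apoa4, which liver also makes, was the 1 called higher. The part of these in the differences was not tested.

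Cyp7a1 read 11.49 and 11.64 in fed wild type and 8.90, 9.81 and 9.54 in fasted wild type. Every fasted array lay more than 1 log2 unit below every fed array. The fitted difference was -2.15 (SE 0.28, adjusted p = 0.00124), a level 4.43-fold lower. Cyp7b1, of the alternative route, read 10.52 and 10.61 in fed and 9.68, 9.88 and 8.59 in fasted wild type. The groups did not overlap, and replicate 3 of the fasted group lay well below the other fasted arrays. Its difference was -1.18 (SE 0.35, adjusted p = 0.0402). Cyp8b1 went the other way in value, from 10.24 and 10.29 to 10.73, 11.22 and 11.00, but at a difference of 0.72 (SE 0.25, adjusted p = 0.0678) it did not pass the test. Cyp27a1 differed by 0.16 (SE 0.11, adjusted p = 0.321), on arrays that read 11.76 and 11.78 when fed and 11.90 to 11.95 when fasted. Baat, the conjugating enzyme, differed by -0.32 (SE 0.12, adjusted p = 0.0908).

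Among the transporters, Abcb4 read 10.57 and 10.41 in fed wild type and 11.31, 11.34 and 11.34 in fasted wild type. The 3 fasted arrays were nearly identical (SD 0.02), and all lay above the fed ones. Abcb4 rose 1.79-fold (log2 difference 0.84, SE 0.15, adjusted p = 0.0044). Abcb11 moved in the opposite direction, from 11.36 and 11.06 to 10.75, 10.57 and 10.72. It fell by 30.7% (log2 difference -0.53, SE 0.14, adjusted p = 0.0248), and the fed arrays lay about as far apart as the lower of them lay above the fasted ones. Slc10a1, the uptake carrier, differed by -0.18 (SE 0.09, adjusted p = 0.21), with fed arrays at 12.33 and 12.40 and fasted arrays between 12.17 and 12.20.

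The receptor pair was split. Fgfr4 read 8.96 on both fed wild type arrays and 7.84, 7.88 and 7.90 on the fasted ones, so that the gap between groups was far wider than the spread within either. It fell by 52.9% (log2 difference -1.09, SE 0.11, adjusted p = 0.00054), the smallest adjusted p among the 10 genes in this comparison. Klb, the coreceptor, read 10.17 and 9.96 in fed and 9.85, 9.94 and 9.92 in fasted wild type, a difference of -0.16 (SE 0.12, 95% interval -0.44 to 0.12, adjusted p = 0.39). Cyp7a1 and Fgfr4 passed the test under all 23 alternatives, including the omission of any single array. Of these 23, Abcb4 passed in 22, Abcb11 in 19 and Cyp7b1 in 13. Abcb11 no longer passed with no filter (adjusted p = 0.056) or without fed wild type replicate 1 (-0.38). It was also lost without fasted wild type replicate 2 (-0.48, adjusted p = 0.0763) or 3 (-0.55, adjusted p = 0.0541). Cyp7b1 was lost with no filter (adjusted p = 0.0853), trend and robust moderation (0.0704), replicate block (0.0532) or only the groups of the comparison (0.0705). The clock covariate (-0.96, adjusted p = 0.231) and omission of fasted knockout replicates 1 and 2 together lost it too. So did single omission of fed wild type replicate 1 (-1.22) or 2 (-1.14), fasted wild type replicate 3 (-0.78, adjusted p = 0.0597) or fasted knockout replicate 2 (adjusted p = 0.0578).

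In knockout liver, the same 6 h without food went with more Cyp7a1, not less, and again with less Fgfr4. Of the 10 genes, 1 rose, 1 fell and 8 did not pass the test, where 0.811% of all genes rose and 0.868% fell. The median difference of the 10 genes was 0.01, as it was 0.01 for all genes. Fed and fasted knockout arrays did not overlap for 4 of the 10 genes (Cyp7a1, Abcb11, Fgfr4 and Klb), against 36.8% of all genes.

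Cyp7a1 read 10.50 and 9.75 in fed and 11.41, 11.79 and 11.44 in fasted knockout. All 3 fasted arrays lay above both fed arrays, and replicate 3, whose Arntl and Dbp levels were near those of fasted wild type, lay among the others. Cyp7a1 rose 2.68-fold (log2 difference 1.42, SE 0.28, adjusted p = 0.0449). Fgfr4 read 8.77 and 9.07 in fed and 8.24, 8.40 and 8.37 in fasted knockout, again with no overlap. It fell by 33.3% (log2 difference -0.58, SE 0.11, adjusted p = 0.044). Both calls were close to the threshold. Cyp7a1 kept its call in 1 of the 10 single-array omissions (that of fasted wild type replicate 1) and lost it in the other 9, with differences of 1.04 to 1.80, while Fgfr4 lost it in all 10, with differences of -0.74 to -0.43. Without fasted knockout replicates 1 and 2 the differences were 1.31 (SE 0.40, adjusted p = 0.132) and -0.55 (SE 0.16, adjusted p = 0.112).

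The 8 other genes did not pass the test in knockout liver, and for some the value was close to that in wild type. Abcb11 read 11.16 and 11.32 in fed and 10.52, 10.80 and 10.84 in fasted knockout, a difference of -0.52 (SE 0.14, adjusted p = 0.0913), where wild type had -0.53. Cyp8b1 differed by 0.66 (SE 0.25, adjusted p = 0.193) with fed arrays at 10.51 and 9.77 and fasted arrays at 10.43, 10.86 and 11.10. Its fed arrays spanned the lowest fasted one. Klb differed by -0.40 (SE 0.12, adjusted p = 0.124). Abcb4 read 10.83 and 10.65 in fed and 10.65, 11.10 and 11.11 in fasted knockout, a difference of 0.21 (SE 0.15, adjusted p = 0.47); the fasted array at 10.65 is replicate 1. Cyp7b1, which fell in wild type, differed by 0.22 (SE 0.35, adjusted p = 0.774) from arrays at 9.57 and 8.90 to arrays at 9.76, 9.36 and 9.25. Cyp27a1, Slc10a1 and Baat differed by -0.02, 0.04 and -0.07.

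**Figure D2:**
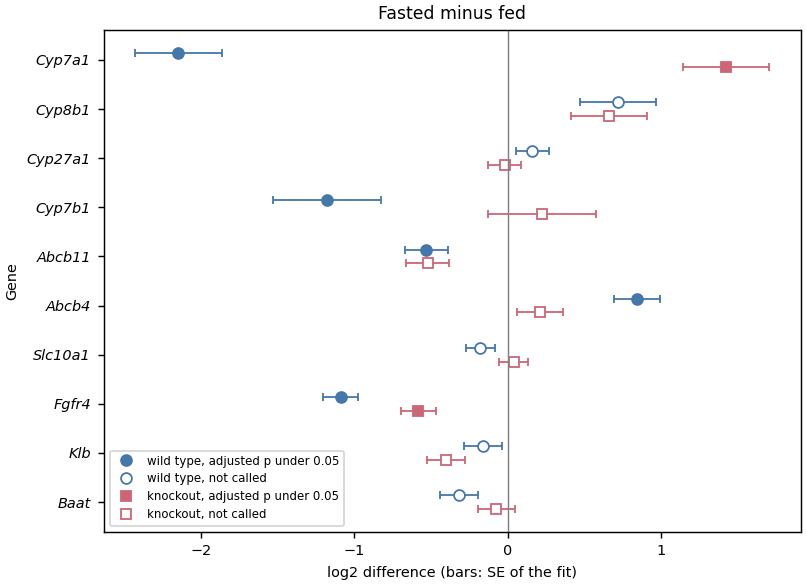
Fasted minus fed log2 difference of each of the 10 genes in wild type (blue circles) and knockout (red squares) liver, with the SE of the fit as bars; filled symbols passed an adjusted p under 0.05. The Cyp7a1 differences lie on opposite sides of 0, those of Abcb11 and Cyp8b1 lie close together, and Fgfr4 is below 0 in both genotypes.

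An interaction, the knockout's fasting difference minus that of the wild type, tested whether the fasting difference varied by genotype. Any difference in clock state between fed and fasted arrays is part of it. Only Cyp7a1 passed among the 10 genes, where 1.32% of all genes passed with a higher and 0.789% with a lower value in the knockout. Its interaction was 3.57 (SE 0.40, adjusted p = 0.017), an 11.9-fold ratio of the fold changes. The median interaction was 0.11 over the 10 genes and 0.04 over all genes. It passed in 19 of 22 alternatives. It did not pass without fed knockout replicate 2 (3.19, adjusted p = 0.0735), without fasted knockout replicates 1 and 2 together (3.46, SE 0.50, adjusted p = 0.065) or with no filter on dim probe sets (adjusted p = 0.0609).

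The remaining 9 genes did not pass, and their intervals say how much could have been missed. For Abcb11 the interaction was 0.01 (SE 0.20, 95% interval -0.44 to 0.45, adjusted p = 0.985), and for Cyp8b1 it was -0.06 (SE 0.35, 95% interval -0.85 to 0.73, adjusted p = 0.944). Cyp7b1 was at 1.40 (SE 0.50, 95% interval 0.29 to 2.51, adjusted p = 0.161). Abcb4 was at -0.63 (SE 0.21, adjusted p = 0.14), and Fgfr4 at 0.50 (SE 0.16, adjusted p = 0.131). These 3 had an unadjusted p under 0.05 but did not pass after adjustment. The fall of Cyp7b1 and the rise of Abcb4, called in wild type liver alone, were thus not shown to differ from the knockout. Cyp27a1, Klb, Baat and Slc10a1 lay between -0.24 and 0.24.

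In fed liver no gene of the 10 differed between genotypes in limma's test at an adjusted p under 0.05, in the main fit or in any of the 23 alternatives. Over all genes 0.0574% were called higher and 0.0287% lower in the knockout, 12 genes in all. An unadjusted p under 0.05 was reached by 2 of the 10, and both catalyse a first or early hydroxylation. Cyp7a1 read 11.49 and 11.64 in wild type and 10.50 and 9.75 in knockout, a difference of -1.43 (SE 0.31, unadjusted p = 0.000985, adjusted p = 0.193). Cyp7b1 read 10.52 and 10.61 against 9.57 and 8.90, a difference of -1.33 (SE 0.39, unadjusted p = 0.00648, adjusted p = 0.347). In either gene both knockout arrays lay below both wild type arrays, and the knockout arrays were farther apart than the wild type ones (SD 0.53 against 0.11 for Cyp7a1, 0.47 against 0.06 for Cyp7b1). Abcb4 and Baat also did not overlap, as was so for 39.9% of all genes, at differences of 0.25 and -0.14. The median was -0.06 over the 10 genes and -0.02 over all genes. Intervals were narrowest for Slc10a1 (-0.27 to 0.19), and spanned -0.32 to 0.24 for Fgfr4, -0.31 to 0.38 for Abcb11 and -0.74 to 0.49 for Cyp8b1.

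In fasted liver the knockout held more Cyp7a1 and more Fgfr4 than the wild type. These 2 of the 10 genes were called higher and none lower, where 6.68% of all genes were higher and 4.43% lower. The median difference was 0.06 over the 10 genes and 0.01 over all genes. Cyp7a1 was 4.39-fold higher (log2 difference 2.13, SE 0.25, adjusted p = 0.00433), with the 3 knockout arrays between 11.41 and 11.79 and the 3 wild type arrays between 8.90 and 9.81. Every knockout array lay above every wild type array by more than 1 log2 unit. Fgfr4 was 1.38-fold higher (log2 difference 0.46, SE 0.10, adjusted p = 0.0234), at 8.24 to 8.40 against 7.84 to 7.90.

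Another 4 genes had fasted arrays that did not overlap between genotypes without passing the test, in a comparison in which that held for 33% of all genes. Abcb4 was lower in value in the knockout (-0.38, SE 0.13, adjusted p = 0.0944), as was Cyp27a1 (-0.26, SE 0.10, adjusted p = 0.111), with knockout arrays at 11.61, 11.64 and 11.77 and wild type arrays at 11.95, 11.94 and 11.90. Slc10a1 was higher in value by 0.17 (adjusted p = 0.208) and Klb lower by 0.21 on the log2 scale (difference -0.21, adjusted p = 0.249). Abcb11 (0.04), Cyp7b1 (0.07), Baat (0.10) and Cyp8b1 (-0.19) overlapped. The 95% interval of Abcb11 ran from -0.24 to 0.32 and that of Cyp7b1 from -0.64 to 0.77.

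Several other measures moved with genotype among the fasted arrays. The summed macrophage marker level (8 of 8 above the median on all arrays) was 11.80 to 11.93 in the knockout and 11.53 to 11.62 in wild type. That of cholangiocyte markers was 8.63 to 8.89 against 9.23 to 9.57, with 2 of 8 above the median on all arrays and 2 on none. Only 1 of the 5 tested was called, Slc10a2 (mean 6.59 against 8.08). Means of the others were 6.78 against 7.16 (Sox9), 5.86 against 5.95 (Krt19), 5.42 against 5.54 (Epcam) and 5.41 against 5.35 (Krt7). Pericentral hepatocyte markers, the zone in which Cyp7a1 is made, summed to 14.08 to 14.14 against 13.93 to 14.03. Of the 7 markers, 6 were higher in value in the knockout, 1 of them called, and Axin2 was lower (mean 6.16 against 6.47). Lgr5 had a mean of 7.29 against 4.55, and was above the array median on 0 of the 3 fasted wild type arrays. Its mean was 7.76 in fed wild type. The part of these cell type markers in the differences was not tested. With a score of clock genes as covariate, limma called neither Cyp7a1 (1.98, adjusted p = 0.0539) nor Fgfr4 (0.49, adjusted p = 0.14). Fasted knockout replicates 1 and 2 differed from fasted wild type in genotype and in clock state, which cannot be told apart on them. Replicate 3 of the fasted knockout, whose Arntl and Dbp levels were near those of fasted wild type, read 11.44 for Cyp7a1 and 8.37 for Fgfr4, above every fasted wild type array. Without replicates 1 and 2 the differences were 2.02 for Cyp7a1 (SE 0.38, adjusted p = 0.0783) and 0.49 for Fgfr4 (SE 0.15, adjusted p = 0.154), close to those over all arrays but no longer past the threshold. Fgfr4 also lost its call without any 1 of the 3 fasted wild type arrays (adjusted p of 0.0602 to 0.068) or without fasted knockout replicate 1 (0.51, adjusted p = 0.0508) or 2 (0.43, adjusted p = 0.0527).

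**Figure D3:**
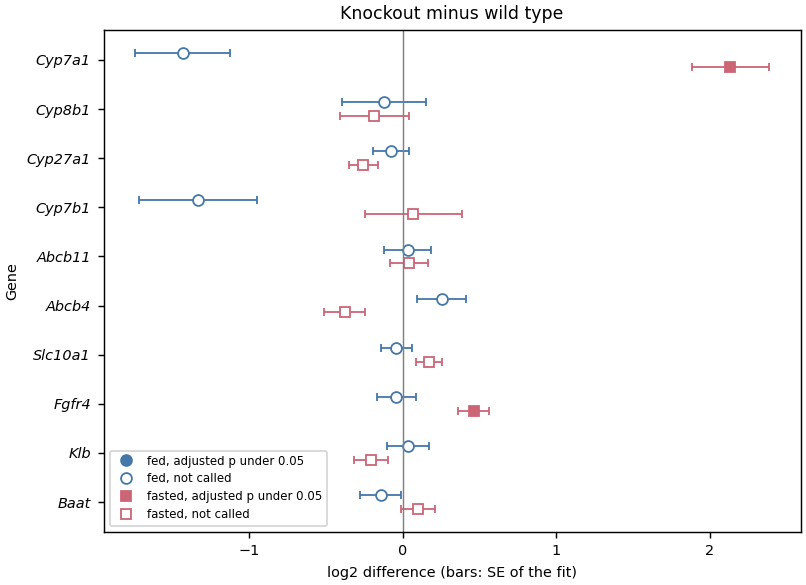
Knockout minus wild type log2 difference of each of the 10 genes in fed (blue circles) and fasted (red squares) liver, with the SE of the fit as bars; filled symbols passed an adjusted p under 0.05. Cyp7a1 is to the left of 0 in fed and to the right in fasted liver, Cyp7b1 is to the left in fed liver and near 0 in fasted liver, and only Cyp7a1 and Fgfr4 in fasted liver are filled.

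The levels of a gene can be ordered over the 4 groups. Cyp7a1 was highest in fed wild type (mean 11.56, SD 0.11, n = 2) and fasted knockout (11.55, SD 0.21, n = 3), whose ranges overlapped, then came fed knockout (10.13, SD 0.53, n = 2) and fasted wild type (9.41, SD 0.47, n = 3), whose ranges also overlapped. Cyp7b1 was high in fed wild type alone (10.56, SD 0.06), and the other groups, at 9.23 to 9.45, overlapped each other. Fgfr4 was at 8.96 in fed wild type with 8.92 in the fed knockout, whose ranges overlapped, then 8.34 in fasted knockout and 7.87 in fasted wild type, each separate from its neighbours. Abcb11 split by feeding only, at 11.24 and 11.21 in the fed groups and 10.72 and 10.68 in the fasted groups. Abcb4 stepped from 10.49 in fed wild type over 10.74 in fed knockout and 10.95 in fasted knockout, which overlapped each other, to 11.33 in fasted wild type. Slc10a1 kept within 0.18 log2 units between the means of all groups, the smallest span of the 10 genes, and Cyp7a1 had the largest, 2.15.

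**Figure D4:**
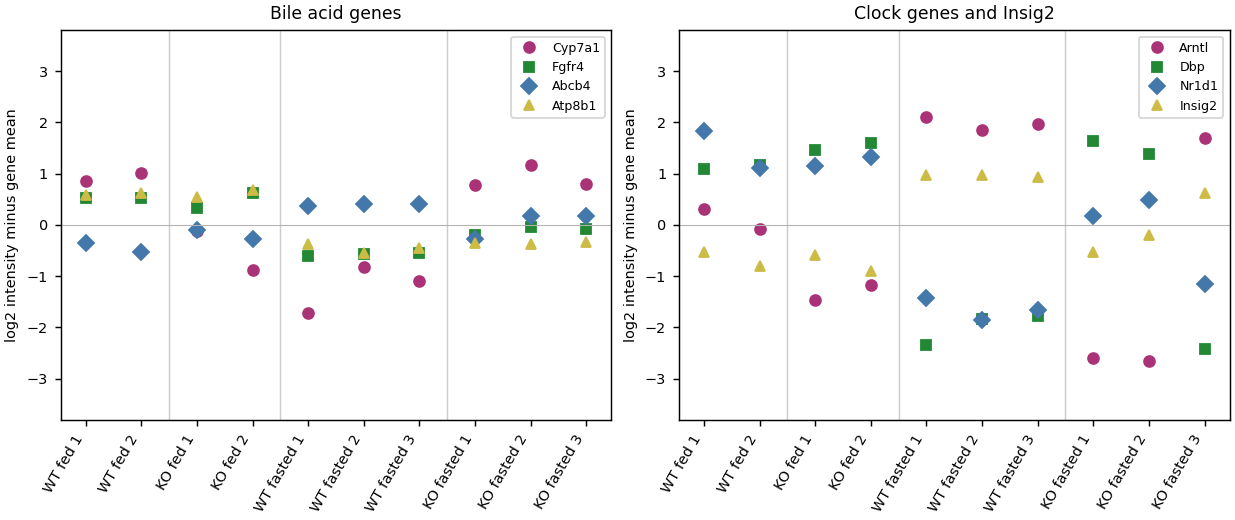
Log2 intensity minus the gene's mean over all 10 arrays for Cyp7a1, Fgfr4, Abcb4 and Atp8b1 (left) and for the clock genes Arntl, Dbp and Nr1d1 with Insig2 (right), array by array. For Cyp7a1 and Fgfr4 all 3 fasted knockout arrays lie above the fasted wild type arrays. For Arntl and Dbp fasted knockout replicate 3 lies near the fasted wild type arrays, away from replicates 1 and 2.

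Over the 10 arrays, which share their groups, the 10 genes did not follow a single pattern. Abcb11 ran with Fgfr4 (Pearson r = 0.88, n = 10 arrays) and with Klb (0.814), and Cyp8b1 ran with Abcb4 (0.828). Fgfr4 ran against Abcb4 (-0.867), and Slc10a1 against Cyp27a1 (-0.875). Cyp7a1 was close to Slc10a1 (0.785) and near 0 against Cyp8b1 (-0.11), another hydroxylase of the classical route. Among all genes tested, those most like Cyp7a1 were Vbp1 (0.941), Prdx3 (0.94) and Atr (0.937). Those most like Fgfr4 were Sp4 (0.987), Ttll5 (0.983) and Trpc4ap (0.983), and for Abcb4 they were Zfand6, Plin2 and Usp38 (0.983 each), Plin2 being a coat protein of lipid droplets. Cyp8b1 was most like Inafm2 (0.964), Cyp39a1 (0.948), another bile acid hydroxylase, and Dcn (0.944). These correlations describe arrays that differ by group, so any gene that moved with fasting can score highly.

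Other enzymes of bile acid synthesis divided in wild type liver into some that rose and some that fell. Of 20 listed, 17 were on the array by name and 16 were tested. In fasted wild type 4 rose (Cyp39a1, Hsd17b4, Abcd3 and Slc27a2), 3 fell (Akr1c6, Akr1d1 and Cyp2c70) and 9 did not pass, where 8.23% of all genes rose and 13.2% fell. Cyp2c70 lost its call in 8 of 10 single-array omissions (differences of -0.36 to -0.29), and Abcd3 and Slc27a2 in 3 each. In fasted knockout none passed in limma's test, where 2 had an unadjusted p under 0.05. The median differences were -0.08 and -0.07. Akr1c6, a hydroxysteroid dehydrogenase, read 10.55 and 10.49 when fed and 7.94, 8.78 and 8.89 when fasted in wild type, and 9.82 and 9.66 when fed and 10.16, 9.81 and 9.61 when fasted in knockout. The 3 fasted wild type arrays were the lowest of all 10. Akr1c6 fell 3.95-fold with fasting in wild type (log2 difference -1.98, SE 0.26, adjusted p = 0.00132), and differed by 0.12 in knockout (SE 0.26, adjusted p = 0.846). Its interaction was 2.10 (SE 0.37, adjusted p = 0.0333), and it was the 1 gene of this list that passed there; in fasted liver the knockout exceeded the wild type by 1.33 (SE 0.24, adjusted p = 0.0114). Without fasted knockout replicates 1 and 2 these became 1.85 (adjusted p = 0.11) and 1.08 (adjusted p = 0.165), and the interaction lost its call in 6 of 10 single-array omissions, with values of 1.80 to 2.28. Akr1d1, the steroid reductase of the step before, fell by 0.61 on the log2 scale in wild type (difference -0.61, adjusted p = 0.00588), and Cyp39a1, an oxysterol hydroxylase, rose by 1.36 (adjusted p = 0.014; without fed wild type replicate 1 it did not pass). Hsd17b4, a peroxisomal enzyme of side chain shortening, rose by 0.57 (adjusted p = 0.00622).

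Among 21 other transporters of bile acids and bile lipids, 20 were on the array and 17 were tested. In fasted wild type 1 rose (Abcc3) and 5 fell (Atp8b1, Slc22a7, Slc10a5, Abcc6 and Slco2b1), where 8.23% of all genes rose and 13.2% fell. In fasted knockout 2 fell (Atp8b1 and Abcc6) and none rose, where 0.868% of all genes fell and 0.811% rose. The medians were -0.25 and -0.17. Slco2b1 lost its call in 3 and Slc10a5 in 1 of 10 single-array omissions. Atp8b1, the canalicular phospholipid flippase that works beside Abcb11 and Abcb4, was the clearest. In wild type it read 9.74 and 9.79 fed and 8.80, 8.61 and 8.71 fasted; in knockout it read 9.72 and 9.84 in fed and 8.81, 8.79 and 8.84 in fasted knockout. All 6 fasted arrays lay below all 4 fed arrays. It fell 2.08-fold in wild type (log2 difference -1.06, SE 0.10, adjusted p = 0.000408) and 1.96-fold in knockout (-0.97, SE 0.10, adjusted p = 0.00797), and the interaction of 0.09 (SE 0.14, adjusted p = 0.763) did not pass. In the knockout it no longer passed when fed knockout replicate 2 was omitted (adjusted p = 0.093). Abcc6 also fell in both genotypes (-0.66, adjusted p = 0.00324, and -0.65, adjusted p = 0.0323, the second lost in 7 of 10 single-array omissions), and Slc22a7, an organic anion carrier, fell in wild type (-1.03, adjusted p = 0.00383). Abcc3, an exporter of bile acids into blood, rose in wild type (0.69, adjusted p = 0.00434); it differed by 0.001 in knockout, and the interaction was -0.69 (SE 0.17, adjusted p = 0.0691). In fasted liver 1 transporter was called higher in the knockout, Slc22a7 (0.58, adjusted p = 0.0446, lost in 7 of 10 single-array omissions), and 1 lower, Slc10a2. Over all genes 6.68% were called higher and 4.43% lower in that comparison. Slc10a2, the sodium-dependent bile acid carrier of ileum and of bile duct cells, read 8.66, 7.74 and 7.85 in wild type and 6.96, 6.52 and 6.28 in knockout liver after fasting (log2 difference -1.50, SE 0.30, adjusted p = 0.017; -1.80, adjusted p = 0.111, without replicates 1 and 2). It is also among the cholangiocyte markers given above, and was the only tested one of them that was called in this comparison.

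Regulators of bile acid synthesis moved in both directions. Of 29 listed, 28 were on the array and 27 were tested. In fasted wild type 8 rose and 5 fell (Fgfr3, Foxa2, Nr2f2, Cebpa and Nr1h3), where 8.23% of all genes rose and 13.2% fell. In fasted knockout 2 rose (Jun and Tfeb) and none fell, where 0.811% of all genes rose and 0.868% fell. The medians were 0.07 and 0.06. Of the 5 that fell, Fgfr3 kept its call in all 10 single-array omissions, and Nr1h3, Cebpa, Foxa2 and Nr2f2 lost theirs in 5, 4, 3 and 2. Jun, a stress-induced transcription factor that represses Cyp7a1 in hepatocytes, read 5.91 and 6.40 in fed and 9.44, 9.31 and 9.62 in fasted wild type arrays, then 6.23 and 6.62 in fed and 8.51, 7.85 and 7.72 in fasted knockout. It rose in both genotypes, by 3.30 (adjusted p = 0.000218) and 1.60 (adjusted p = 0.0323), and the interaction was -1.70 (SE 0.35, adjusted p = 0.0426). In fasted liver the knockout was lower by 1.43 on the log2 scale (difference -1.43, adjusted p = 0.00782). Foxo1, the forkhead factor held back by insulin, rose by 1.13 in wild type (adjusted p = 0.000779), differed by -0.12 in knockout, and passed the interaction at -1.25 (adjusted p = 0.0264). Cebpb and Nr1i2 (the xenobiotic receptor PXR) likewise rose in wild type (1.91 and 0.90) and passed the interaction at -1.45 (adjusted p = 0.0426) and -0.81 (adjusted p = 0.0333). In Foxo1, Cebpb and Nr1i2 the fed knockout arrays were already above the fed wild type ones, though none of these fed differences was called. They read 9.88 and 9.83 against 9.29 and 9.11 for Foxo1, and 8.77 and 8.01 against 7.24 and 7.28 for Cebpb. The interactions of Jun, Foxo1, Cebpb and Nr1i2 were each lost without fasted knockout replicates 1 and 2 (adjusted p of 0.065 to 0.108), and in 9, 5, 10 and 8 of 10 single-array omissions. The rise of Jun in knockout was lost in 6 of them (differences of 1.36 to 1.79). Tfeb, a lysosomal transcription factor, differed by 0.50 in knockout (adjusted p = 0.0483), was not above the array median on either fed knockout array and lost its call in all 10 omissions.

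Fgf21, a fasting hormone that signals through Klb, and Insig2, an inhibitor of cholesterol synthesis, rose in fasted wild type by 3.61 and 1.63 (adjusted p = 0.000779 and 0.00376) and were called lower in fasted knockout than in fasted wild type. Fgf21 was above the array median on 1 of the 2 fed wild type arrays, so its rise starts from a dim signal. These last differences rested on replicates 1 and 2: Fgf21 read 6.31 and 7.03 there and 7.98 in replicate 3, and Insig2 10.53 and 10.85 there and 11.68 in replicate 3. Without them the differences moved from -1.76 to -0.89 (adjusted p = 0.242) and from -0.998 to -0.34 (adjusted p = 0.344). Nr1h4 and Nr0b2, named outside the rule because they encode FXR and SHP, passed in none of the 5 comparisons. Nr0b2 differed by -0.84 with fasting in wild type (SE 0.36, adjusted p = 0.127; 0.0432 without fasted knockout replicates 1 and 2) and by -0.80 in knockout (SE 0.36, adjusted p = 0.263), from arrays at 9.31 and 9.97 to arrays at 8.85, 9.02 and 8.52, and from 10.52 and 10.11 to 10.19, 9.55 and 8.80. Nr1h4 differed by -0.05 and 0.07.

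**Figure D5:**
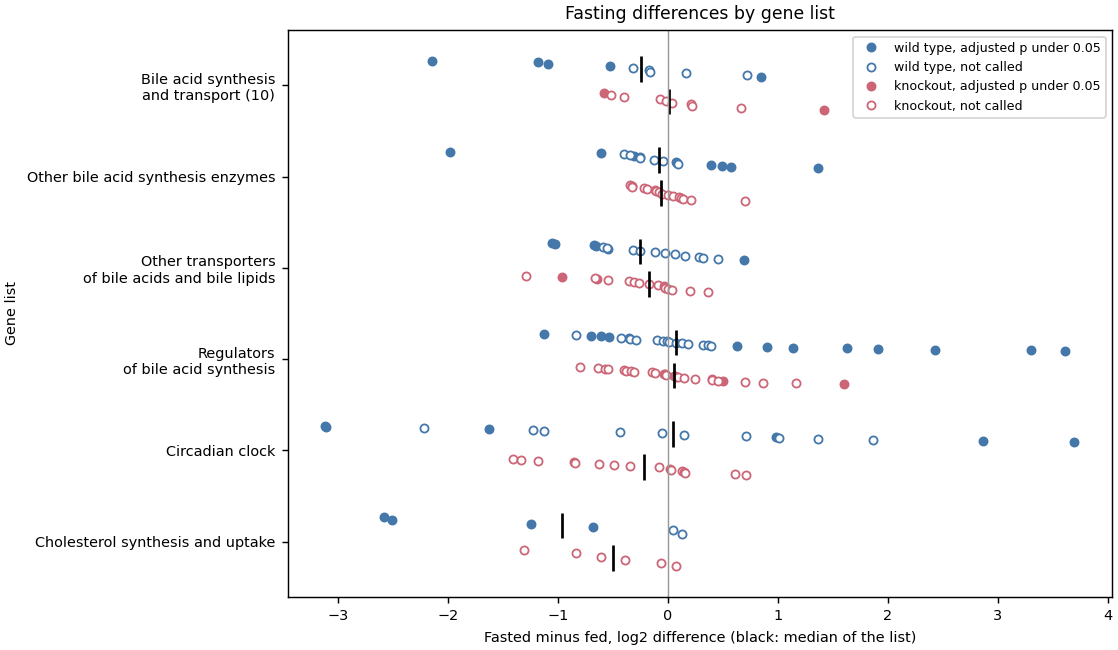
Fasted minus fed log2 difference of every tested gene in 6 lists, in wild type (blue) and knockout (red) liver; filled points passed an adjusted p under 0.05 and black bars are list medians. In wild type, genes of each list lie on both sides of 0 except that all 4 called cholesterol genes fell; in knockout, 6 points are filled over the 6 lists.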

How the data were processed

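Liver RNA of 10 samples in 4 groups was measured on 1 array each. Per the submitters' processing notes, the authors used Affymetrix Expression Console and RMA; no source used here gives a version, a build or an annotation release. The deposited values are linear intensities per probe set, and log2 was taken here with no further normalization. Of 41345 probe sets, 23521 carried 1 gene symbol in the platform annotation, 1814 several and 16010 none; symbols can be old. Values under 0.1 numbered 228 to 489 per array. Probe sets above their array's median (percentile 50) on 2 or more arrays were kept, and each gene was represented by its brightest such probe set, which gave 13942 genes. Arrays give no read depth, and the precision is limited by the number of arrays and, for dim probe sets, by the signal.

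A linear model with 4 group means over all 10 arrays was fitted with limma 3.58.1 in R 4.3.3 (lmFit, eBayes; residual degrees of freedom 6, prior 3.63). All arrays share the estimate of spread, so omitting an array outside a comparison can change its p. A call is a Benjamini-Hochberg adjusted p under 0.05 over all genes. Pml was tested by an exact permutation test. The script was tested on simulated data. Comparisons with a group in common are not independent. The 10 genes, the other lists and the tests were chosen with earlier results of these data known. From each list up to 4 genes with the smallest p per comparison are named, and genes of counts of 5 or fewer. For likeness the 3 highest correlations per gene were taken. Promoters came from RefSeq (GRCm38.p6), 7 of 10 genes matched. Alternatives covered array scaling, filter, probe set rule, pseudocount, moderation, array weights, replicate block, samples in the fit, a clock score covariate and omission of arrays.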

Additional observations from a re-analysis of the deposited data

Results flagged for a closer look

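For Cyp7a1, the rate-setting enzyme of bile acid synthesis, the fasting difference was of opposite sign in the genotypes, and the test of that difference itself passed. It was -2.15 in wild type and 1.42 in knockout, so that the interaction was 3.57 on the log2 scale (SE 0.40, limma adjusted p = 0.017). All 3 fasted wild type arrays lay below both fed ones, and all 3 fasted knockout arrays lay above both fed ones. The fed knockout arrays lay below the fed wild type ones, a difference that was not called. The rise in knockout lost its call in 9 of 10 single-array omissions. The interaction lost its call without fed knockout replicate 2, without fasted knockout replicates 1 and 2 together, and with no filter. With no group of 4 or more arrays, single arrays were not tested for standing apart.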

How the results depend on the processing

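Of the 10 genes, 5 were called with fasting in wild type: 3 with no filter and 3 with the clock score as covariate, and 3 to 6 when arrays were omitted singly. With fasting in knockout 2 were called: 1 with each array centred on its median, and 0 with no filter, with the replicate block, with only the groups of the comparison, under the clock covariate, and when fasted knockout replicates 1 and 2 were left out together; single omissions gave 0 to 1. Between genotypes in fasted liver 2 were called: 1 without the filter on dim probe sets, 5 under trend and robust moderation, 0 under the clock covariate and 0 without those replicates; single omissions gave 1 to 2. The interaction called 1: 0 with no filter and 0 without those replicates, and 0 to 1 in single omissions. In fed liver 0 were called under every alternative run. With the clock covariate Abcb4 in wild type read 0.68 (adjusted p = 0.0577) and Cyp7a1 between fasted genotypes 1.98 (adjusted p = 0.0539). Arntl reversed in wild type with the clock covariate, which contains it (-0.89, adjusted p = 0.0356), and in knockout without fasted replicate 3 (-1.31, adjusted p = 0.0414; single omissions gave -1.31 to 0.863). The cause of the other changes was not tested.

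Over all genes 234 were called with fasting in knockout, against 504 with trend and robust moderation, 10 without the filter and 0 with the replicate block. The labels do not say whether replicate numbers pair the arrays. Deviations of same-numbered arrays from their group means correlated by -0.173 to 0.105, over 0.1 in 1 of 13 pairs. In a group of 2 arrays the deviations mirror each other, so these values cannot show whether the numbers pair. With the replicate block, 4 of the 10 genes were called with fasting in wild type, 0 in knockout, 0 between fed and 2 between fasted genotypes, and 1 in the interaction. Groups of 2 and 3 arrays limit all results.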

Other observations

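Cholesterol is the substrate of this pathway. Of 10 listed genes of cholesterol synthesis and uptake, 6 were tested; 4 fell in fasted wild type and none rose, where 13.2% of all genes fell and 8.23% rose. Cyp51, a demethylase of the sterol ring, fell by 2.59 on the log2 scale (difference -2.59, SE 0.25, adjusted p = 0.000453), Sqle, the squalene epoxidase, by 2.51 (difference -2.51, adjusted p = 0.00373), Hmgcs1 by 1.25 (difference -1.25, adjusted p = 0.0114) and Srebf2, the transcription factor of the pathway, by 0.68 (difference -0.68, adjusted p = 0.0265). Hmgcs1 and Srebf2 lost their calls in 1 and 3 of 10 single-array omissions. In fasted knockout none of the 6 passed in limma's test (2 had an unadjusted p under 0.05). In wild type Cyp51 read 9.46 and 9.99 when fed and 7.21, 7.02 and 7.17 when fasted. In knockout it read 8.24 and 8.54 when fed and 7.28, 7.29 and 8.09 when fasted. Fed wild type was the highest group, and fasted knockout replicate 3 lay above the other fasted arrays. Cyp51 was the 1 gene of the list that passed the interaction (1.75, adjusted p = 0.0426; 2.29, adjusted p = 0.065, without fasted knockout replicates 1 and 2).

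Of 18 clock genes, 16 were tested. In fasted wild type 3 rose (Cry1, Per1 and Npas2) and 3 fell (Nr1d1, Dbp and Bhlhe40), where 8.23% and 13.2% of all genes did. Npas2, Dbp and Bhlhe40 lost their calls in 8, 7 and 4 of 10 single-array omissions (differences of 3.41 to 4.05, -3.22 to -2.93 and -1.82 to -1.50). All groups share the estimate of spread, and the SD of these genes in fasted knockout was 2.68, 2.27 and 0.97. In fasted wild type it was 0.65, 0.31 and 0.35. Arntl, which was not called, read 7.50 and 7.10 in fed and 9.04 to 9.29 in fasted wild type. For 13 of the 16 genes every fasted wild type array lay on the same side of every fed one, as for 52.7% of all genes. In fasted knockout none passed in limma's test (2 had an unadjusted p under 0.05). In wild type Nr1d1, a clock repressor, read 10.20 and 9.48 when fed and 6.94, 6.51 and 6.72 when fasted. In knockout it read 9.53 and 9.70 when fed and 8.55, 8.86 and 7.21 when fasted. A score of 4 clock genes minus 6 others was -0.51 and -1.13 in fed and 2.22 to 2.90 in fasted wild type arrays. On knockout arrays it was -1.81 and -1.95 when fed and -2.65, -2.39 and 2.71 when fasted. Fasted knockout replicate 3 fell within the fasted wild type range of that score, and its Cyp7a1 level did not. This is 1 array, and the part of the clock state in the Cyp7a1 difference cannot be told from it. With the score as covariate, Cyp7a1 differed by 1.98 between fasted genotypes and was not called (limma adjusted p = 0.0539).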
